A study of Mus musculus with 12 samples.

Results

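The mouse orthologs of the human 22q11.2 region were the 32 entries of the deposited count table that carry the symbols of these genes, out of 35129 entries, of which 16468 held a count in at least 1 library. All 32 symbols were present. The rule used their names and their place in the genome and no measured value. Heterozygous loss of 22q11.2 causes DiGeorge or velocardiofacial syndrome and is among the strongest known genetic risk factors for schizophrenia. The region holds genes for mitochondrial metabolism, microRNA processing, protein turnover, vesicle traffic and axon growth, and in mouse the orthologs lie together on chromosome 16. The human interval holds repeats named A to D; the common deletion runs from A to D, and a smaller nested one from A to B. By this map 22 members were A-B orthologs and 10 were B-D orthologs. On GRCm38, by RefSeq positions, the members spanned chr16:17280351-18970309, a stretch of 1.69 Mb, with 17 on the minus strand and 15 on the plus strand. Cldn5 and Serpind1 of the same stretch were left out of the list.

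The study asked how chronic nicotine acts on gene expression in cortical interneurons and in pyramidal neurons. Sst-neurons were GFP-labeled cells of GIN mice, an FVB line in which a Gad1 promoter transgene marks some of the somatostatin interneurons, and Thy1-neurons were YFP-labeled layer V pyramidal cells of thy1-YFP-H mice on a B6 background. Male mice of 5 to 7 weeks and 20 g received nicotine hydrogen tartrate at 48 mg/kg/d, or saline, from a subcutaneous osmotic pump for 14 days, with 3 mice planned in each of 4 groups named Sst, Sst+Nic, Thy1 and Thy1+Nic. From each mouse 30 cells were aspirated by hand, 10 at a time, and their cDNA was amplified before sequencing. Every comparison between Sst- and Thy1-neurons was therefore also a comparison between an FVB line and a B6 line, and cell type and strain cannot be told apart. The table held 10 libraries, namely Sst replicates 1, 2 and 3, Sst+Nic replicates 2 and 3, Thy1 replicates 2 and 3, and Thy1+Nic replicates 1, 2 and 3. Sst+Nic replicate 1 and Thy1 replicate 1 were not analysed here.

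Library totals ran from 2915738 to 4878326 counted fragments, and a count of 0 allowed a level of up to 0.615 to 1.03 counted fragments per 1000000 (CPM). Counts were dense on chromosome 16 before 40 Mb, where 236 of 365 protein-coding entries (64.7%) had a mean count of at least 20, against 3655 of 20062 (18.2%) on the other chromosomes. Only 2 of 32 cell type markers lay in the dense stretch, Sst and Cldn5, and 10 of the 32 were at 0 in every library. Defining markers of the labelled cells were among those at or near 0. Gad1, the enzyme that makes GABA, reached 0.995 CPM in 1 Sst library and was at 0 in the other 9, and Slc17a7, the glutamate transporter of pyramidal neurons, was at 0 in all 10. The pyramidal factor gene Tbr1 was counted in every library, at 51.01 to 70.6 CPM in Sst and Sst+Nic and 13.7 to 72.5 CPM in Thy1 and Thy1+Nic. Summed over the 7 pyramidal markers the level was 51.01 to 76.5 CPM and 18.4 to 90.4 CPM, so this list did not set the cell types apart. The neuropeptide gene Sst stood at 53779 to 126088 CPM in the 5 Sst and Sst+Nic libraries and at 1.15 to 49.2 CPM in the Thy1 and Thy1+Nic libraries other than Thy1 replicate 3, which held 3795 CPM. Low counts of other interneuron markers did not follow the labels. Lhx6 was at 0 in all 3 Sst libraries, at 17.8 and 1.84 CPM in Sst+Nic, at 6.87 CPM in Thy1 replicate 2, and at 3.17 and 5.44 CPM in Thy1+Nic replicates 1 and 2. Slc32a1, the vesicular GABA transporter, was at 0.249, 1.53 and 12.1 CPM in Sst, 27.4 and 16.6 CPM in Sst+Nic, 6.87 CPM in Thy1 replicate 2, and at most 1.18 CPM in the other 4 libraries, while Npy was at 0 in all 10 and Gad2 reached 0.255 CPM in 1 Sst library. By Sst, Thy1 replicate 3 stood against its label, and the calls between Sst and Thy1 are also given without it. The endothelial gene Cldn5 was at 35.7 CPM in Sst replicate 2, 13.1 CPM in Sst+Nic replicate 3, 12.1 CPM in Thy1+Nic replicate 1 and 7.37 CPM in Thy1+Nic replicate 3, and at 0 in the other 6 libraries. Of the oligodendrocyte markers, Olig1 was at 107 CPM and Olig2 at 53.7 CPM in Sst+Nic replicate 3. Olig1 stood between 0 and 46.4 CPM and Olig2 between 0 and 21.1 CPM in the other 9 libraries. Summed, the 3 endothelial markers stood at 219 to 417 CPM in Sst and Sst+Nic libraries and at 115 to 189 CPM in Thy1 and Thy1+Nic libraries, most of it Flt1. The 4 astrocyte markers summed to at most 1.73 CPM, the 4 microglia markers to at most 8.64 CPM, and the 3 red blood cell markers were at 0. Transcripts encoded in mitochondrial DNA took 16.3% to 22.1% of counts in Sst and Sst+Nic libraries and 31.4% to 38.5% in Thy1 and Thy1+Nic libraries. The part of these differences in the results below was not tested, apart from the fits named there.

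The promoter sequences show how the members share their start regions. RefSeq promoter windows of GRCm38.p6, running from 250 bases before to 50 bases after a start, were found for 30 of the 32 members, 37 windows in all, and not for Sept5 and Slc7a4. A GC box, searched as GGGCGG on both strands, was found in 26 of the 37 windows (70.3%) and in 35.7% of 32851 windows of all genes. The NRF1 core TGCGCA, which reads the same on both strands, was in 7 windows (18.9%) against 7.76% of all windows. These windows belonged to 5 members. Windows that overlap, as those of Pi4ka and Snap29 do, each count a site they share. The CCAAT box (14 windows, 37.8%) and TATAAA (5 windows, 13.5%), both searched on both strands, were about as frequent as in all windows (37.4% and 13.6%). The median number of CpG dinucleotides was 21 in the members' windows and 7 in all windows. Rtn4r is shown first because it had the smallest p of all members between the cell types. Its window at chr16:18127392-18127691 on the plus strand held 47 CpG dinucleotides, more than 98.6% of windows, and 7 GC boxes. Capitals mark the GC box on either strand, and boxes that touch or overlap run together.
Rtn4r: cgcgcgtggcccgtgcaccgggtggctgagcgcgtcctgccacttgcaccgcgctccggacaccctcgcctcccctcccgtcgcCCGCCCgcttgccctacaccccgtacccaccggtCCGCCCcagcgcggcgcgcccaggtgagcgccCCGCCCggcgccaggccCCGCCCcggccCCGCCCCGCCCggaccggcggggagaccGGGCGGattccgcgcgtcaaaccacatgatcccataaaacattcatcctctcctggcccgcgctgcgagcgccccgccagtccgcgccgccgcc

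The head-to-head pairs, on opposite strands with gene starts within 1000 bases, numbered 4, namely Pi4ka and Snap29, Ranbp1 and Trmt2a, Cdc45 and Ufd1l, and Mrpl40 and Hira. The Ranbp1 and Trmt2a windows shared 288 bases and the Cdc45 and Ufd1l windows shared 179 bases. The first pair is shown by the Trmt2a window (chr16:18248633-18248932, plus strand), which was dense in CpG, with 42, and held 3 GC boxes. Both windows of the second pair are shown (Ufd1l at chr16:18812044-18812343, plus strand, and Cdc45 at chr16:18811923-18812222, minus strand), because the pair combines a member counted in every library with one counted in 5.
Trmt2a: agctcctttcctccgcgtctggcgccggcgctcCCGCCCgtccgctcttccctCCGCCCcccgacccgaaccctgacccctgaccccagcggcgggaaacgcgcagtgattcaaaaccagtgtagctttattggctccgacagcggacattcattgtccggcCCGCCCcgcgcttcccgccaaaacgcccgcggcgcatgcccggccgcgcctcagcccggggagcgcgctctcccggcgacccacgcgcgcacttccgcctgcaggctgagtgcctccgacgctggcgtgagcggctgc
Ufd1l: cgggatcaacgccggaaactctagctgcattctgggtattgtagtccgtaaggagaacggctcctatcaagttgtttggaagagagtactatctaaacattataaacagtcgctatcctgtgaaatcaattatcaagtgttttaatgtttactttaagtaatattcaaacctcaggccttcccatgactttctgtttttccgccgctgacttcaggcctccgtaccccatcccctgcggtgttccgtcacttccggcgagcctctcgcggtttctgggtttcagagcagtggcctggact
Cdc45: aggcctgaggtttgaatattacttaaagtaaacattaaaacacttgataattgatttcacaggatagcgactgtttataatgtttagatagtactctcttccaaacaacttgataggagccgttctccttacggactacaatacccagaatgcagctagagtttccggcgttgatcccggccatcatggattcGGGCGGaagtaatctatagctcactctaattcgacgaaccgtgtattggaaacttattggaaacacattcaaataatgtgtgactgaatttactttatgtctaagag

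Members of a pair were not counted in a fixed ratio. Ranbp1 counts were 4.58 to 31.0 times those of Trmt2a across the 10 libraries, and the highest ratio was in Thy1 replicate 3. For Mrpl40 over Hira the ratio ran from 4.49 in Thy1 replicate 2 to 55.4 in Thy1 replicate 3, the 2 libraries of the same group. Pi4ka counts exceeded those of Snap29 by 3.94 to 14.6 times.

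Most of the orthologs were counted in these neurons. Of 32 members, 24 had a count in all 10 libraries, 25 had a mean of at least 20 CPM, and the kinase gene Tssk2 and the homeobox gene Gsc2 were at 0 in every library. Tbx1, the T-box factor tied to the heart defects of the deletion, had 1 library with a count (0.343 CPM, Sst+Nic replicate 2), and so had the scavenger receptor gene Scarf2 (0.864 CPM, Thy1+Nic replicate 1). P2rx6, a subunit of ATP-gated channels, was counted in 4 libraries at 1.65 to 6.30 CPM. Prodh, which encodes the mitochondrial enzyme of proline breakdown, was counted in 5 libraries at 0.275 to 18.2 CPM. Cdc45, a replication factor of dividing cells, was counted in 5 libraries, at 24.0 CPM in Sst replicate 2, 22.3 CPM in Sst+Nic replicate 3 and 2.86 to 5.22 CPM in the other 3. None of these low members had the libraries of one group apart from those of all the other groups. Prodh was higher in Sst+Nic (18.2 and 1.23 CPM) than in Sst (at most 0.810 CPM). Its counts were too low for it to be tested in that comparison.

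**Figure D1:**
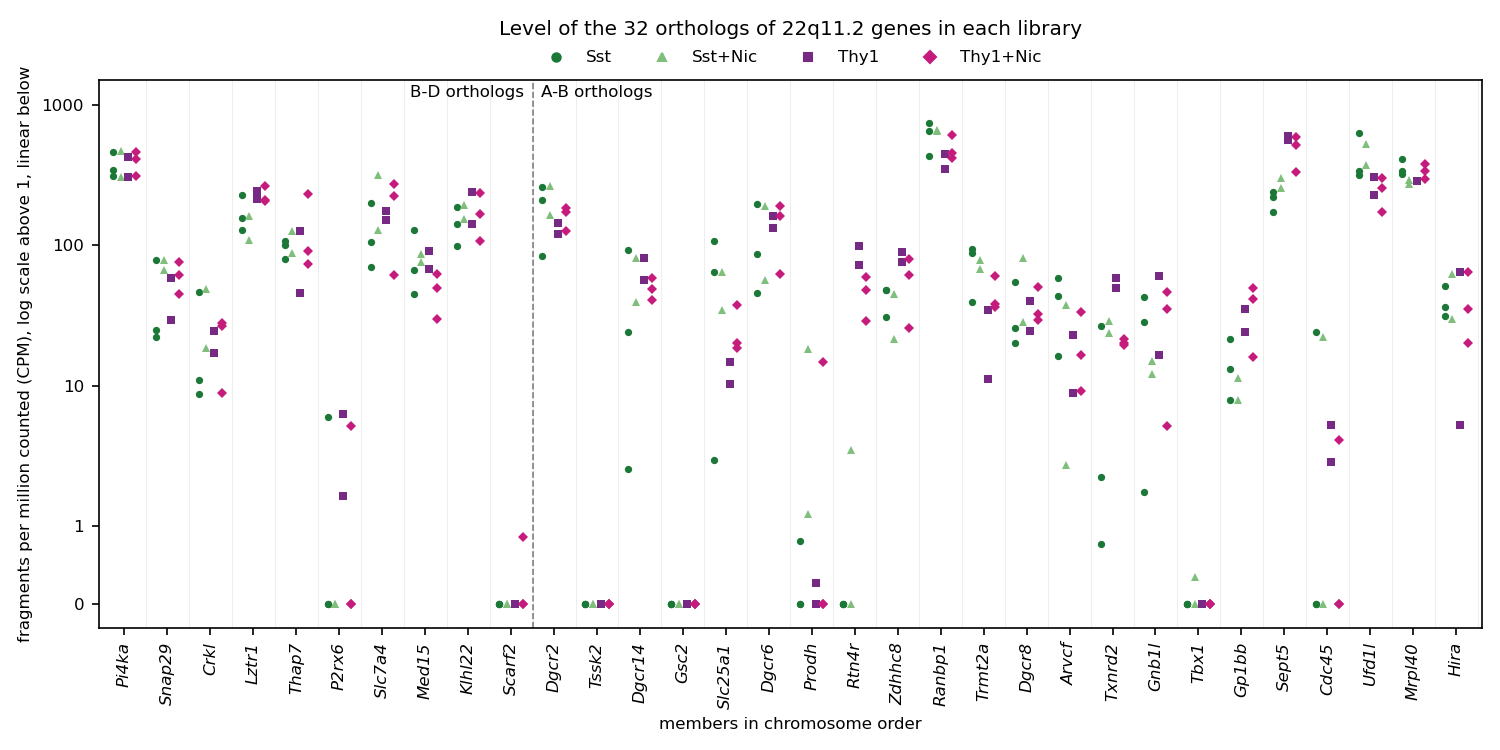
Level of each member in each of the 10 libraries, in CPM (log axis above 1, linear below 1), with members in chromosome order and the symbol giving the group. Rtn4r has all 5 Thy1 and Thy1+Nic points between 28.9 and 99.7 CPM and all 5 Sst and Sst+Nic points between 0 and 3.48 CPM.

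Summed over the 32 members, the level was 3350 ± 457 CPM (SD, n = 3) in Sst, 3638 ± 657 CPM (SD, n = 2) in Sst+Nic, 3486 ± 53.9 CPM (SD, n = 2) in Thy1 and 3517 ± 372 CPM (SD, n = 3) in Thy1+Nic. The libraries of all 4 groups overlapped on this scale. With TMM scaling the mean of Sst+Nic was below that of Sst and not above it. With mitochondrially encoded genes left out of the totals, which took a larger share in Thy1-neurons, the 4 means were 4270 ± 557, 4429 ± 666, 5257 ± 142 and 5382 ± 281 CPM in the same order. On that scale the libraries no longer overlapped between the cell types, with the 5 Sst and Sst+Nic libraries at 3658 to 4900.0 CPM and the 5 Thy1 and Thy1+Nic libraries at 5072 to 5618 CPM. Per kb of exons, the highest mean levels belonged to Ranbp1 (482 CPM per kb), Mrpl40 (247 CPM per kb), Ufd1l (123 CPM per kb) and Sept5 (97.0 CPM per kb).

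**Figure D2:**
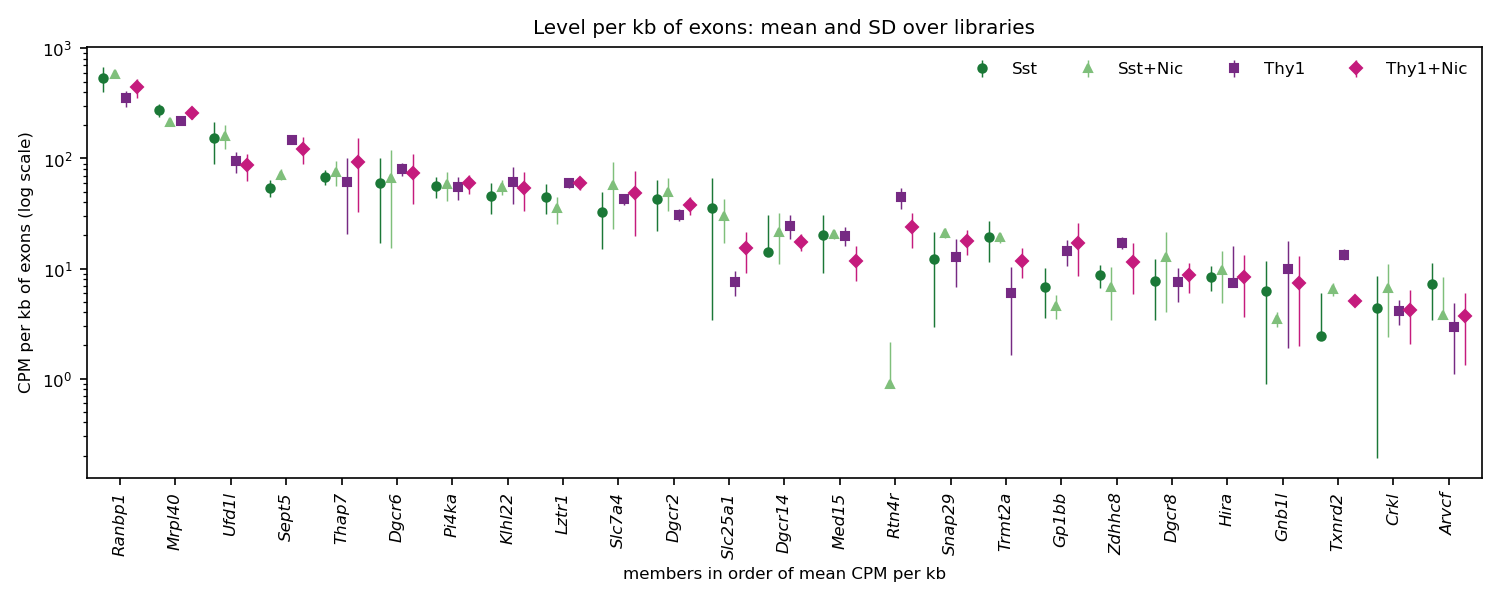
Mean level per kb of exons (log axis, CPM per kb) of the 25 members above 20 CPM, by group, with bars of 1 SD over the libraries of the group and members in order of their mean. The part of a bar below the mean is left out where the SD exceeds the mean, and Rtn4r in Sst, at 0 in all 3 libraries, has no point, while Ranbp1 is the highest member in all 4 groups.

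The levels by library follow in the order of the members' roles, and each sentence gives the replicates of a group in rising number. Nuclear transport and protein turnover held 4 members, all counted in every library. Ranbp1, a cofactor of the Ran GTPase in nuclear transport, was at 433, 657 and 742 CPM in Sst, 648 and 660.5 in Sst+Nic, 445 and 349 in Thy1, and 459, 422 and 612 in Thy1+Nic. Ufd1l, which helps extract ubiquitin-tagged proteins for degradation, was at 632, 338 and 318 CPM in Sst, 531 and 374 in Sst+Nic, 227 and 309 in Thy1, and 255, 172 and 303 in Thy1+Nic. On this scale every Sst and Sst+Nic library of Ufd1l (318 CPM or more) was above every Thy1 and Thy1+Nic library (309 CPM or less), while Ranbp1 overlapped between the cell types. Neither was called in any comparison by edgeR. Klhl22, an adaptor of a cullin ubiquitin ligase, was at 188, 99.7 and 143 CPM in Sst, 194 and 155 in Sst+Nic, 241 and 142 in Thy1, and 108, 166 and 237 in Thy1+Nic. Lztr1, a cullin adaptor that acts on RAS proteins, was at 129, 157 and 230.2 CPM in Sst, 161 and 109 in Sst+Nic, 213 and 243 in Thy1, and 264, 211 and 209 in Thy1+Nic. Lztr1 was lower in both Sst+Nic libraries than in any of the Thy1+Nic libraries, while Sst and Thy1 overlapped.

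The mitochondrial members differed in their spread. Mrpl40, a protein of the mitochondrial ribosome, was at 324, 338 and 415 CPM in Sst, 273 and 292 in Sst+Nic, 288 and 289 in Thy1, and 298, 338 and 383 in Thy1+Nic. It was the steadiest of the 25 members above 20 CPM, with a coefficient of variation of 0.142 over the 10 libraries. Slc25a1, the mitochondrial citrate carrier, was at 2.98, 64.5 and 108 CPM in Sst, 34.6 and 64.8 in Sst+Nic, 10.3 and 14.8 in Thy1, and 37.7, 18.7 and 20.3 in Thy1+Nic, and Txnrd2, the mitochondrial thioredoxin reductase, was at 2.24, 0.765 and 26.7 CPM in Sst, 29.2 and 23.8 in Sst+Nic, 58.7 and 49.97 in Thy1, and 20.2, 19.6 and 21.5 in Thy1+Nic. Txnrd2 was higher in both Thy1 libraries than in any of the other 8. Within Sst, Slc25a1 ranged from 2.98 CPM (Wilson 95% interval 1.71 to 5.22) in replicate 1 to 108 CPM (98.1 to 119) in replicate 3. Such an interval covers counting error only, because amplified fragments are not independent molecules, and not the spread between cell pools.

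Vesicle traffic, lipid and palmitoylation members were all counted in every library. Pi4ka, the kinase that makes phosphatidylinositol 4-phosphate at the plasma membrane, was at 467, 313 and 346 CPM in Sst, 474 and 307 in Sst+Nic, 430.0 and 307 in Thy1, and 415, 313 and 462 in Thy1+Nic. Snap29, a SNARE protein of membrane fusion, was at 78.6, 22.2 and 24.8 CPM in Sst, 67.2 and 78.1 in Sst+Nic, 29.5 and 58.5 in Thy1, and 76.3, 45.1 and 61.9 in Thy1+Nic. Neither set the groups apart in CPM. Zdhhc8, a palmitoyltransferase of neurons, was at 31.1, 48.5 and 47.8 CPM in Sst, 44.9 and 21.5 in Sst+Nic, 76.2 and 90.3 in Thy1, and 80.3, 61.7 and 25.9 in Thy1+Nic, with both Thy1 libraries above all 3 Sst libraries. Sept5 is described with the comparison of cell types.

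Among the gene regulation and RNA members, Thap7, a zinc-finger repressor, was at 108, 79.8 and 101 CPM in Sst, 126 and 87.9 in Sst+Nic, 45.8 and 127 in Thy1, and 232, 74.2 and 91.6 in Thy1+Nic. Med15, a subunit of the Mediator complex, was at 66.6, 45.4 and 129 CPM in Sst, 76.1 and 87.5 in Sst+Nic, 91.4 and 68.4 in Thy1, and 49.5, 62.6 and 29.8 in Thy1+Nic. Dgcr14, a factor of the spliceosome, was at 24.1, 2.55 and 92.6 CPM in Sst, 81.6 and 39.8 in Sst+Nic, 57.00 and 80.7 in Thy1, and 48.95, 58.1 and 40.7 in Thy1+Nic. Dgcr14 held 2.55 CPM in Sst replicate 2 and at least 24.1 CPM in each of the other 9 libraries. Trmt2a, a tRNA methyltransferase, was at 94.5, 39.3 and 88.5 CPM in Sst, 79.2 and 68.1 in Sst+Nic, 34.9 and 11.3 in Thy1, and 60.5, 36.2 and 38.3 in Thy1+Nic. Dgcr8, the partner of Drosha in microRNA processing, was at 20.1, 55.1 and 25.6 CPM in Sst, 81.3 and 28.5 in Sst+Nic, 40.1 and 24.7 in Thy1, and 32.5, 29.3 and 50.4 in Thy1+Nic. Trmt2a and Dgcr8 share 825 exonic bases of the GENCODE M21 annotation on opposite strands, and since the cDNA kit does not mark the strand, reads there cannot be told apart. Hira, a chaperone of histone H3.3, was at 36.3, 31.4 and 51.01 CPM in Sst, 29.8 and 62.1 in Sst+Nic, 64.2 and 5.22 in Thy1, and 35.1, 64.3 and 20.03 in Thy1+Nic. The 2 Thy1 libraries were the highest but 1 and the lowest for Hira, with Wilson 95% intervals of 56.3 to 73.1 CPM and 3.34 to 8.15 CPM.

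Of the surface, receptor and adhesion members, Dgcr2, an adhesion receptor, was at 263, 84.7 and 210.2 CPM in Sst, 265 and 165 in Sst+Nic, 121 and 144 in Thy1, and 174, 127 and 184 in Thy1+Nic. Slc7a4, of the cationic amino acid transporter family, was at 199, 70.4 and 106 CPM in Sst, 319 and 128 in Sst+Nic, 152 and 176 in Thy1, and 227, 61.7 and 274 in Thy1+Nic. Arvcf, a catenin of cell junctions, was at 16.4, 58.2 and 43.7 CPM in Sst, 2.74 and 37.9 in Sst+Nic, 8.88 and 23.1 in Thy1, and 9.21, 33.8 and 16.5 in Thy1+Nic. In CPM none of these separated the groups compared. In the last role, signalling and other, Crkl, an adaptor of tyrosine kinase signalling, was at 46.2, 8.67 and 11.1 CPM in Sst, 49.04 and 18.4 in Sst+Nic, 24.6 and 17.02 in Thy1, and 28.2, 26.5 and 8.84 in Thy1+Nic, Dgcr6 was at 46.00, 86.98 and 197 CPM in Sst, 191 and 56.6 in Sst+Nic, 133 and 162 in Thy1, and 190.0, 161 and 62.5 in Thy1+Nic, and Gnb1l, a protein of WD repeats, was at 1.74, 43.1 and 28.6 CPM in Sst, 15.1 and 12.1 in Sst+Nic, 60.4 and 16.5 in Thy1, and 35.4, 5.20 and 46.3 in Thy1+Nic. Their groups overlapped as well.

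Between Sst- and Thy1-neurons without nicotine, Rtn4r and Sept5 were lower in Sst-neurons. Rtn4r encodes the Nogo receptor, through which myelin proteins restrain axon growth, and lies at chr16:18127642-18152408 on the plus strand. It was at 0 in all 3 Sst libraries and at 72.5 CPM (Wilson 95% interval 64.1 to 82.0) and 99.7 CPM (89.9 to 110.5) in the 2 Thy1 libraries. With each Sst library held at its limit of 3 counts, Rtn4r was at most 0.810 CPM there. The Thy1 mean of 86.1 ± 19.2 CPM (SD, n = 2) was 106 times that limit. This ratio allows for counting error in Sst only, and not for the spread between cell pools. The adjusted p was 0.0144 by the quasi-likelihood test of edgeR. In these pools, fewer cells with a transcript and less of it per cell cannot be told apart.

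Sept5, at chr16:18621811-18629938 on the minus strand, encodes a septin that sits on synaptic vesicles and restrains exocytosis. Its level was 222, 172 and 242 CPM in Sst, 302 and 257 in Sst+Nic, 566 and 598 in Thy1, and 590.3, 515 and 335 in Thy1+Nic. All 5 Sst and Sst+Nic libraries were below all 5 Thy1 and Thy1+Nic libraries. Group means were 212 ± 35.8 CPM (SD, n = 3) in Sst and 582 ± 22.4 CPM (SD, n = 2) in Thy1, with a fitted log2 fold change of -1.64 (SE 0.23, edgeR adjusted p = 0.0226). Here and below, fitted log2 fold changes are after TMM scaling, while the levels and means are CPM of the library totals, so the ratio of 2 means need not give the fitted fold. Gp1bb, the platelet glycoprotein gene just downstream, shares 1902 exonic bases with Sept5 on the same strand in the GENCODE M21 annotation, and 593 bases by the RefSeq positions, so their fragments cannot be told apart there. Gp1bb was at 21.4, 7.91 and 13.2 CPM in Sst, 7.89 and 11.3 in Sst+Nic, 24.3 and 35.4 in Thy1, and 50.1, 41.4 and 15.9 in Thy1+Nic, and its log2 fold change of Sst over Thy1 was -1.31 (SE 0.71, edgeR adjusted p = 0.434, chosen after its values were seen). The Gp1bb libraries of Sst lay below those of Thy1, as for Sept5, but the difference did not pass.

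**Figure D3:**
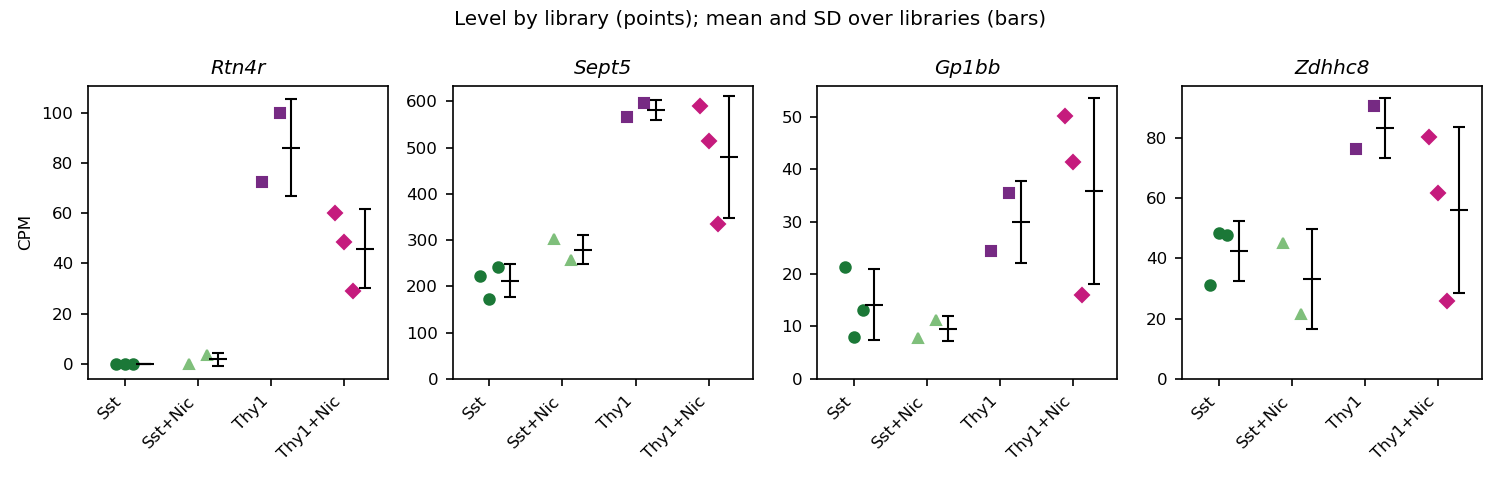
Levels (CPM, linear axes) of Rtn4r, Sept5, Gp1bb and Zdhhc8 in each library (points) by group, with the group mean and a bar of 1 SD beside them. Every Thy1 point is above every Sst point in all 4 panels, and only for Rtn4r and Sept5 did that difference pass the test.

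These were 2 of the 27 members that passed the low-count filter, against 1.72% of 6350 entries called in either direction and 0.898% called lower in Sst-neurons. On chromosome 16 before 40 Mb, 14 of 270 entries (5.19%) were called. An entry was called where its adjusted p was under 0.05 and its fold change, on the log2 scale, exceeded 1 in either direction. At an unadjusted p under 0.05 there were 4 members (14.8%), against 16.3% of all entries. After TMM scaling, the libraries of the 2 groups did not overlap for 7 members (25.9%), against 35.2% of all entries. By these looser measures the share among members was no higher than in the whole table. The other 2 members of the 4 were Zdhhc8, with a log2 fold change of -1.12 (SE 0.45, edgeR adjusted p = 0.291), and Trmt2a, chosen after its values were seen, with 1.51 (SE 0.63, edgeR adjusted p = 0.304). The log2 fold change was below 0 for 18 of 27 members (66.7%) and for 48.3% of all entries, but with library totals in place of TMM scaling it was below 0 for 13 members. The median log2 fold change was -0.17 over the members tested and 0.05 over all entries. It was -0.35 over the members without Thy1 replicate 3, -0.44 without Sst replicate 2, -0.09 without Thy1 replicate 2, -0.52 with limma voom, and 0.01 with library totals. Without Thy1 replicate 3 the log2 fold change of Trmt2a was 0.95 (SE 0.68), that of Zdhhc8 was -0.90 (SE 0.66), and neither had an unadjusted p under 0.05.

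Surface members accounted for 1 of the 2 calls, with 1 of 6 tested called, and the vesicle members for the other, with 1 of 4. The other 4 roles had none of 17 called. All 9 B-D members tested had a log2 fold change below 0, with a median of -0.34, against 9 of 18 A-B members, but with library totals 5 of 9 were below 0. After nicotine, in Sst+Nic against Thy1+Nic, 6 of 8 B-D members (median -0.35) and 13 of 19 A-B members (median -0.26) were below 0. The difference between the sub-regions was not tested. No B-D member was called by edgeR in either comparison, while DESeq2 called Lztr1 after nicotine. Both calls rested on few libraries. Without Thy1 replicate 3, the library with Sst transcripts, neither was called, with edgeR adjusted p of 0.064 for Rtn4r and 0.182 for Sept5, although Rtn4r was at 72.5 CPM and Sept5 at 566 CPM in Thy1 replicate 2 alone. The fit without it holds 1 Thy1 library, which is assumed to vary as the Sst libraries do, and gave Sept5 a log2 fold change of -1.52 (SE 0.34). Sept5 was also lost when any other single library was left out (edgeR adjusted p = 0.0583 to 0.106, log2 fold change -1.82 to -1.62), while Rtn4r was kept (0.0338 to 0.0465). With mitochondrially encoded genes taken out, both stayed called, with edgeR adjusted p of 0.0166 and 0.0249. With the replicate block, or with uniquely mapped reads as library sizes, Rtn4r stayed called and Sept5 did not.

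After nicotine, Sst+Nic against Thy1+Nic, the reported edgeR fit called no member among 27 tested, and 0.507% of 6509 entries. Rtn4r was at 0 and 3.48 CPM in the 2 Sst+Nic libraries and at 59.9, 48.4 and 28.9 CPM in the 3 Thy1+Nic libraries. The groups did not overlap, and the Thy1+Nic mean was 45.7 ± 15.7 CPM (SD, n = 3). The log2 fold change was -5.03 (SE 1.30, edgeR adjusted p = 0.146). Its size rested on the 2 Sst+Nic libraries, since it was -4.11 (SE 1.06, edgeR adjusted p = 0.192) without Sst+Nic replicate 2, and without Sst+Nic replicate 3 the only Sst+Nic library is at 0 and gives no finite fold. Without Sst+Nic replicate 3, the Sst+Nic library that held the Rtn4r counts, the edgeR adjusted p was 0.016. That fit sets 1 library at 0 against Thy1+Nic, takes the spread from Thy1+Nic alone, and is no support for a difference, since the library left out is the one with the counts. That library also held Cldn5 at 13.1 CPM, Olig1 at 107 CPM and Olig2 at 53.7 CPM, against 0, 21.3 and 0 CPM in Sst+Nic replicate 2, and their part in the result was not tested.

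Sept5 had a fitted log2 fold change of -1.31 (SE 0.38, edgeR adjusted p = 0.193), with 279.7 ± 32.3 CPM (SD, n = 2) in Sst+Nic and 480.2 ± 131 CPM (SD, n = 3) in Thy1+Nic. For Lztr1 it was -1.28 (SE 0.34, edgeR adjusted p = 0.154), with 135 ± 36.9 CPM (SD, n = 2) in Sst+Nic and 228 ± 31.5 CPM (SD, n = 3) in Thy1+Nic. Named after their values were seen, Gp1bb and Mrpl40 had log2 fold changes of -2.41 (SE 0.80) and -0.76 (SE 0.30), with edgeR adjusted p of 0.228 and 0.282. The scaling set these sizes in part. With library totals in place of TMM they were -0.77 for Sept5, -0.75 for Lztr1, -1.89 for Gp1bb and -0.26 for Mrpl40, and of these only Gp1bb then had an unadjusted p under 0.05. These 5 were the members at an unadjusted p under 0.05, or 18.5% of those tested, against 15.8% of all entries. DESeq2 called 4 of them lower in Sst+Nic, Rtn4r, Sept5, Lztr1 and Gp1bb, where it called 7.93% of 6255 entries. Libraries did not overlap for 9 members (33.3%), against 34.6% of all entries. Zdhhc8, which had stood apart without nicotine, overlapped here, with a log2 fold change of -1.34 (SE 0.66, edgeR adjusted p = 0.399), or -0.75 with library totals. The log2 fold change was below 0 for 19 members (70.4%) and 47.3% of all entries, and with library totals in place of TMM scaling for 10 members. The members' median was -0.26 and that of all entries 0.09. On chromosome 16 before 40 Mb the median was -0.23. The members' median was -0.67 without Sst+Nic replicate 2 and 0.26 with library totals.

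**Figure D4:**
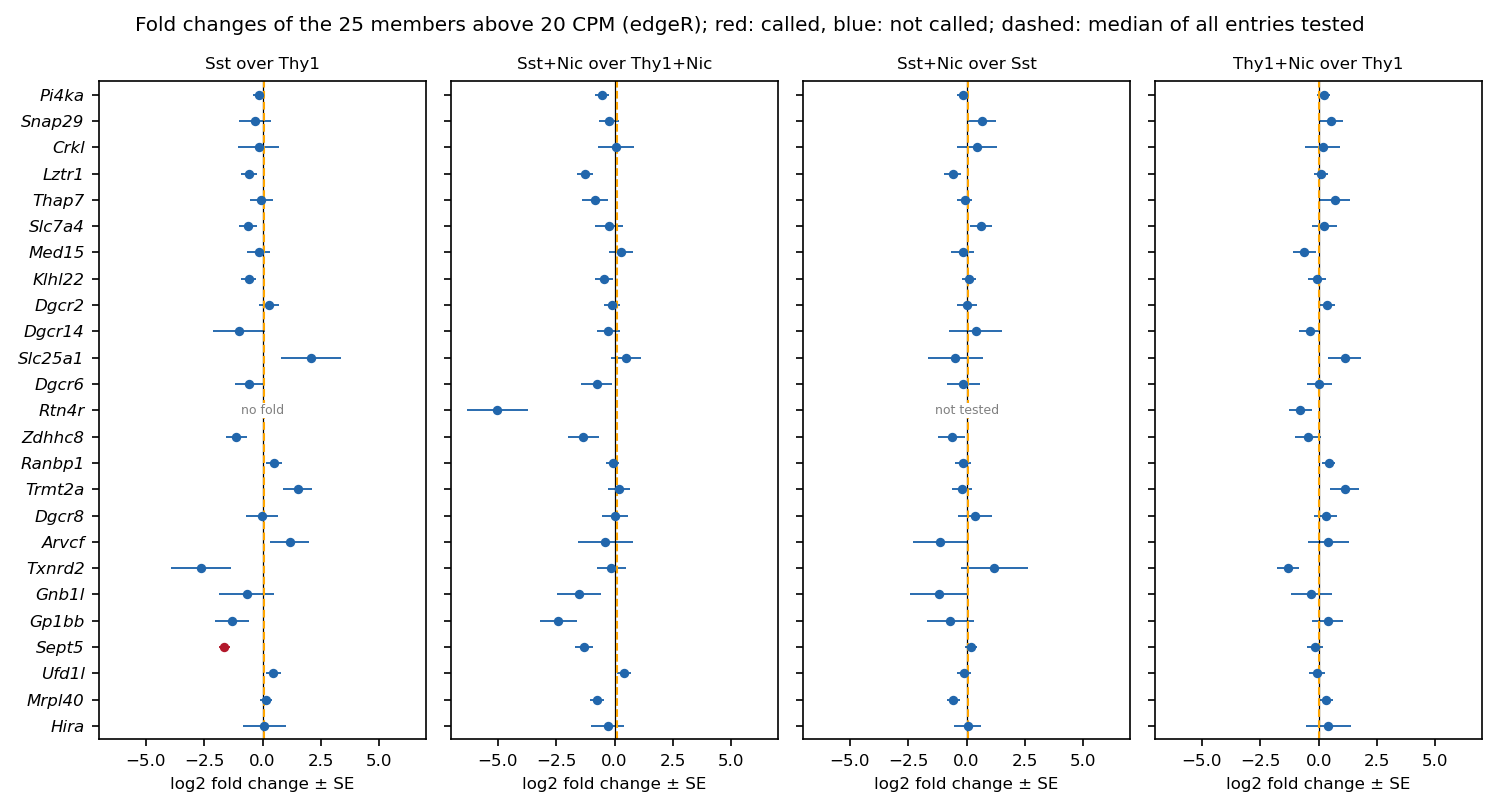
Log2 fold change with a bar of 1 SE from edgeR for the 25 members above 20 CPM, in 4 comparisons, with members in chromosome order, called members in red, the others in blue, and the dashed line at the median of all entries tested. Sept5 in Sst over Thy1 is the red point, and Rtn4r, called there too, has no finite fold in that panel because its Sst libraries were at 0, and was not tested in Sst+Nic over Sst.

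Nicotine did not move any ortholog past the test in Sst-neurons. None of 25 members tested was called, as none of 6689 entries was (0%), by edgeR. At an unadjusted p under 0.05 there were 0 members and 280 entries (4.19%), and DESeq2 called 16 entries (0.297%) and no member. The 3 members with the smallest p were Mrpl40, Lztr1 and Slc7a4. Mrpl40 stood at 359 ± 48.9 CPM (SD, n = 3) in Sst and at 282 ± 13.6 CPM (SD, n = 2) in Sst+Nic, with a fitted log2 fold change of -0.57 (SE 0.29, edgeR adjusted p = 1.00), or -0.34 with library totals. Lztr1 had -0.60 (SE 0.38) and Slc7a4 had 0.63 (SE 0.46), each with an edgeR adjusted p of 1.00. The Slc7a4 value was -0.019 without Sst+Nic replicate 2 and 1.03 without Sst+Nic replicate 3, so its direction rested on 1 library. Mrpl40 was the only member tested whose libraries did not overlap, 1 of 25 (4%), against 20.6% of all entries. The median log2 fold change was -0.12 over the members and 0.05 over all entries, with 11 of 25 members above 0. The sign of the members' median depended on the scaling and on 1 library, since it was 0.15 with library totals, with 17 members above 0, and 0.11 without Sst replicate 3.

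In Thy1-neurons, too, nicotine moved no ortholog past the test. None of 27 members tested and none of 6048 entries (0%) was called by edgeR, while DESeq2 called 14 entries (0.302%) and no member. At an unadjusted p under 0.05 there was 1 member (3.7%), Txnrd2, against 264 entries (4.37%). Txnrd2 stood at 58.7 and 49.97 CPM in Thy1 and at 20.2, 19.6 and 21.5 CPM in Thy1+Nic, with no overlap. Its log2 fold change was -1.30 (SE 0.47, unadjusted p = 0.0244, edgeR adjusted p = 1.00). Trmt2a had a log2 fold change of 1.11 (SE 0.62) and Rtn4r one of -0.79 (SE 0.49), each with an edgeR adjusted p of 1.00. Without Thy1 replicate 2 or Thy1 replicate 3 the value for Trmt2a was 2.03 or 0.59, and that for Rtn4r was -1.07 or -0.41. Rtn4r was lower in all 3 Thy1+Nic libraries than in either Thy1 library. The libraries of 6 members (22.2%) did not overlap, against 20.8% of all entries. The median was 0.19 over the members and -0.003 over all entries. The members' median was -0.01 without Thy1+Nic replicate 1, 0.09 without Thy1 replicate 2, 0.12 without Thy1+Nic replicate 2, -0.10 with the replicate block, 0.06 with limma voom and 0.02 with library totals, so its sign changed with the setting.

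The change with nicotine was also compared between the cell types. By the interaction test of edgeR no member of 28 and no entry of 8242 (0%) was called, while 605 entries (7.34%) and 2 members (7.14%) had an unadjusted p under 0.05, and DESeq2 called 7 entries (0.122%) and no member. The 2 members, named after their values were seen, were Rtn4r (unadjusted p = 0.00659, adjusted p = 0.672) and Mrpl40, with a difference of -0.92 in log2 fold change (SE 0.40, unadjusted p = 0.0387, adjusted p = 0.672). Since Rtn4r had no count in the Sst libraries, its fitted difference depends on the prior count and is not given.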

How the data were processed

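The study's methods state alignment with TopHat to a patch release of the mouse genome, and the submitters' processing notes also name HTSeq and GRCm38; tool versions and the strand setting were not given in the sources used here. The deposited table holds raw fragment counts per gene symbol, which the authors did not normalize, for 10 of the 12 samples. The study tested FPKM with EBSeq. Here levels were CPM of the library total, and positions and promoters came from RefSeq GRCm38.p6 (exon lengths from GENCODE M21). The tests were edgeR 4.0.16 quasi-likelihood fits (R 4.3.3) on the whole table with TMM scaling, filterByExpr with a minimum count of 10, and Benjamini-Hochberg adjustment over all entries tested; a call needed adjusted p under 0.05 and a log2 fold change beyond 1 either way. Wilson intervals at 95% and a floor of 3 counts cover counting error only. The labels number the replicates without tying each to a mouse, so p-values measure the spread between libraries. No pair of libraries was alike (highest correlation 0.812). Scripts were tested on simulated data with a smaller spread than these libraries had. The check asked only for the right direction of large changes, and gives no power or error rate for these data. Alternatives were DESeq2 1.42.0, limma 3.58.1 voom, other scalings and filters, a replicate block and leaving out each library. Members with at least 20 CPM on average were given by library, and statistics for members called and the 3 smallest p in each comparison of 2 groups. The members and lists were chosen with earlier results of these data known.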

Additional observations from a re-analysis of the deposited data

Results flagged for a closer look

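Mrpl40 met the condition that every library moved one way in one cell type and the other way in the other. With TMM scaling both Sst+Nic libraries lay below all 3 Sst libraries, and all 3 Thy1+Nic libraries lay above both Thy1 libraries. The log2 fold change with nicotine was -0.57 for the former cells and 0.33 for the latter, and the difference of -0.92 did not pass the interaction test of edgeR (SE 0.40, adjusted p = 0.672). Among all entries tested in both cell types, 137 of 5105 (2.68%) met the same condition, and among the members 1 of 25.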

How the results depend on the processing

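A fit without 1 library of a group of 2 takes the spread from the other group. In Sst against Thy1 all calls (109) came to 551 with DESeq2, 454 with no filter, 266 with at least 10 counts in a library and 17 on chromosome 16 before 40 Mb alone, and 33 to 55 without single libraries, with 0 to 1 members (2 in the reported fit, and 3 with no filter, Txnrd2 being the third). With uniquely mapped reads as library sizes 1 member, Rtn4r, was called. In Sst+Nic against Thy1+Nic all calls (33) came to 496 with DESeq2, 65 with limma voom, 356 with no filter, 275 with at least 10 counts, 105 with all libraries in 1 fit and 12 on chromosome 16 alone, and 0 to 56 without single libraries, and members to 4 with DESeq2, 1 with no filter, 1 with at least 10 counts and 0 to 1 without single libraries. With nicotine in Sst-neurons there were 16 calls with DESeq2 and 8 with no filter, and in Thy1-neurons 14, 13 and, with at least 10 counts, 7. For the interaction there were 7 calls with DESeq2, 36 with no filter, 27 with at least 10 counts and 0 to 5 without single libraries, with 1 member, Rtn4r, under each of those 2 filters. The cause of these moves was not tested.

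Replicate numbers shared across groups did not pair the libraries (correlations of deviations -0.084 to 0.022). With the replicate block, 59 entries and 1 member, Rtn4r, were called in Sst against Thy1, and 9 entries and no member in Sst+Nic against Thy1+Nic.

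With library totals in place of TMM, the median of all entries rose from 0.05 to 0.22 in Sst against Thy1 and from 0.09 to 0.59 in Sst+Nic against Thy1+Nic, and the members below 0 went from 18 to 13 and from 19 to 10 of 27, while the members' median stayed under that of all entries by 0.21 and 0.34. Calls higher and lower in Sst-neurons were 52 and 57 with TMM, 49 and 40 with totals and 61 and 34 with uniquely mapped reads, and after nicotine 15 and 18, 17 and 7, and 20 and 13. The Slc7a4 log2 fold change in Sst-neurons was -0.019 without Sst+Nic replicate 2 and 1.03 without Sst+Nic replicate 3. The summed level became 3166, 2936, 3709 and 4086 CPM in Sst, Sst+Nic, Thy1 and Thy1+Nic with TMM, so that Sst+Nic was below Sst and not above it, and 4270, 4429, 5257 and 5382 CPM in Sst, Sst+Nic, Thy1 and Thy1+Nic without mitochondrially encoded genes. Without single libraries it was 3154 to 3600 CPM in Sst, 3173 to 4103 in Sst+Nic, 3448 to 3524 in Thy1 and 3350 to 3718 in Thy1+Nic. Alternatives added after seeing the data were library totals, uniquely mapped reads, and chromosome 16 alone.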

Other observations

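The stretch between the first and the last member also held 10 protein-coding entries that were not members, and 7 of them were tested in each comparison. None was called by edgeR. In Sst against Thy1, 2 of the 7 had an unadjusted p under 0.05 and 6 had a log2 fold change below 0, with a median of -0.38. In Sst+Nic against Thy1+Nic all 7 were below 0, with a median of -0.59. Over all entries of chromosome 16 before 40 Mb the medians were -0.09 and -0.23.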
